A study of Mus musculus with 16 samples.

Results

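Colonic mucosa of mice that had received dinitrobenzene sulfonic acid (DNBS) into the rectum and the treatment labelled CEC by mouth was compared with the mucosa of healthy mice. The 8 samples were chosen by their labelled group, out of 16 in the series. The 4 CEC samples, numbered 1, 2, 6 and 8, had intrarectal DNBS and oral CEC, and the 4 healthy samples, numbered 3, 4, 5 and 6, had phosphate-buffered saline (PBS) by both routes. The labels do not spell out CEC, and strain, sex, age, genotype, dose and time are not given in the sources used here. The healthy group thus differs from the CEC group in both treatments, and this comparison alone cannot tell their parts apart. Of the other 8 samples, 4 had DNBS with oral PBS (the DNBS group) and 4 had DNBS with oral Nissle (the Nissle group). They entered the shared estimate of the spread, the choice of assays averaged for a gene and the comparisons near the end. The series description speaks of RNA pooled from mice, while each sample has its own number. Either 1 mouse or several may thus stand behind a sample, and the p-values measure only the spread between samples.

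DNBS is a hapten that binds proteins of the colon wall, and rodents given it develop an acute colitis with epithelial injury and an influx of neutrophils. Injured epithelium and resident phagocytes then make interleukin 1, interleukin 6 and chemokines that act on CXCR2, the receptor that draws neutrophils out of the blood. Neutrophils in turn carry the calcium-binding proteins S100A8 and S100A9, which together form calprotectin, the faecal protein measured clinically to follow inflammation of the gut.

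RNA was read by real-time PCR on a panel of inflammation genes, with 648 assays for 584 genes. Each gene's cycle threshold (Ct) was subtracted from the mean Ct of 13 reference genes to give its level, on a log2 scale on which 1 unit is about a doubling of RNA. A Ct above 28 counted as not detected. After 16 control genes were set aside, 568 genes remained, of which 426 were detected in all 8 samples and 55 in none. A difference was tested for 458 genes, those that at least 3 CEC and at least 3 healthy samples detected. A Ct does not tell how many molecules were read, and no counting error can be attached to it.

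The mucosa labels were checked against markers on the panel. The epithelial keratin Krt8 was among the higher levels in every sample, at 4.0, 3.12, 4.72 and 3.69 in CEC samples 1, 2, 6 and 8 and 4.55, 3.45, 4.37 and 2.85 in healthy samples 3, 4, 5 and 6. All 6 epithelial markers on the panel could be tested. Their mean level lay between −2.19 and −1.73 in CEC and between −2.30 and −1.61 in healthy samples.

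CEC samples had more assays within reach of detection, 548 to 559 against 528 to 539 (means 552 ± 4.83 and 535 ± 4.97, SD, n = 4 each). The ranges did not meet, and the exact two-sided permutation test gave p = 0.0286, the smallest that 4 against 4 samples allow. Adjusted over the 4 sample measures tested, that p was 0.114. The mean reference Ct was 19.3 ± 0.30 in CEC and 19.6 ± 0.37 in healthy samples (exact permutation p = 0.343). Among the reference genes Ywhaz was erratic, at a Ct of 25.3, 21.6, 25.3 and 18.6 in the CEC samples and 26.8, 20.8, 19.0 and 18.9 in the healthy ones. It and Rplp2 had a higher mean Ct in CEC samples, by 1.33 and 0.68, while the other 11 had a lower one, by 0.33 to 0.85. This moves every level of a sample together, so small differences below depend on the reference.

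No single gene passed the threshold of 0.05 on the adjusted p in the comparison of CEC with healthy mucosa. Of 458 genes tested with limma, 0 were called (percent called 0), and the lowest adjusted p was 0.226, for Hif1a. At an unadjusted limma p under 0.05 there were 25 genes, 5.46% of those tested, where 22.9 would be expected with no difference at all. Of these 20 were higher in CEC (4.37%) and 5 lower (1.09%). The groups did not overlap in 15 genes (3.28%), 12 with the CEC samples above (2.62%) and 3 with them below (0.655%). With no difference, 4 samples separate fully from 4 others with probability 0.0286, the smallest exact permutation p given above. The share of 3.28% is close to that, so a lack of overlap alone does not set a gene apart. Differences exceeded 2-fold in 47 genes, 27 upward, and 4-fold in 7 genes, 6 upward. Over all tested genes 264 were higher in CEC and 194 lower. The share of higher genes was thus 57.6%, to be set beside the counts of the gene lists below. The 25 genes are drawn in the plot of the largest differences.

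**Figure D1:**
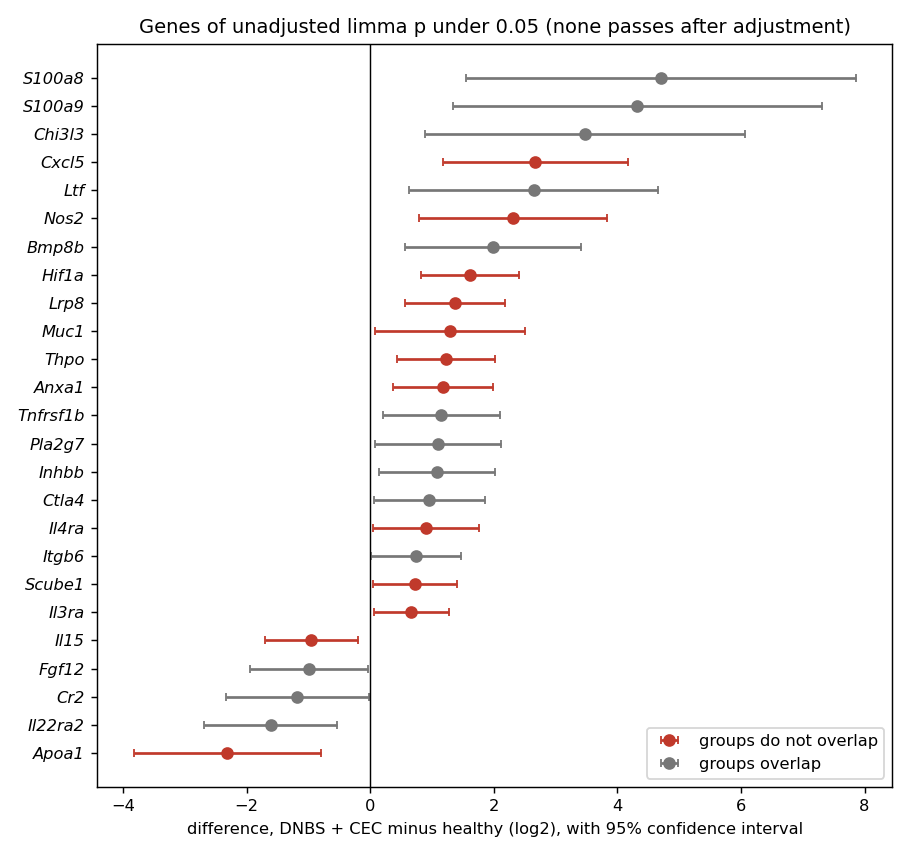
The 25 genes with an unadjusted limma p under 0.05, by their difference between CEC and healthy samples on the log2 scale (point) with its 95% confidence interval (line), 4 samples per group except 3 CEC samples for Chi3l3 and 3 healthy samples for Il4ra. Red marks genes whose groups do not overlap; S100a8 and S100a9 have the largest differences and the widest intervals, and 5 genes lie below 0.

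Across the panel the CEC samples were more spread than the healthy ones. The median SD of a gene was 0.70 among CEC and 0.41 among healthy samples, and it was the larger in CEC for 369 of 458 genes (80.6%). The median standard error (SE) of a difference was 0.47 and the median 95% interval reached 0.99 to either side. Differences under 2-fold thus mostly could not reach an unadjusted limma p under 0.05. At the adjusted threshold the larger differences were not called either. CEC sample 8 lay nearest to healthy mucosa, with 26 genes more than 2-fold from the healthy mean, against 130, 173 and 80 in CEC samples 1, 2 and 6. Each healthy sample itself had 17 to 43 such genes. The healthy mean includes that sample, which lowers its count, so these counts are not on a par with those of CEC samples. Of the 25 genes named above, CEC samples 1, 2, 6 and 8 lay outside the healthy range, in the direction of the difference, in 24, 23, 21 and 15. Those genes were picked by these same values, so high counts are largely built in. Without CEC sample 8 the count at an unadjusted p under 0.05 was 47, and Hif1a passed with an adjusted limma p of 0.0443. Leaving out each of the other 7 samples gave 17 to 36 such genes and no call.

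The neutrophil genes held the largest differences. S100a8 stood at 2.01, 2.33, −3.42 and −4.84 in CEC samples 1, 2, 6 and 8, and at −6.95, −5.06, −6.66 and −4.07 in healthy samples 3, 4, 5 and 6. CEC samples 1 and 2 were far above every healthy sample, sample 6 was just above the highest, and sample 8 was within the healthy range. The mean difference was 4.71 ± 1.49 (SE, n = 4 per group; 95% interval 1.54 to 7.87; limma adjusted p = 0.336). S100a9, its partner in calprotectin, was at 1.61, 0.47, −3.03 and −5.36 against −6.30, −4.92, −7.28 and −5.09, in the same order of samples, a difference of 4.32 ± 1.41 with the same adjusted p. CEC samples 1 and 2 were again above 6, and 6 above 8, with sample 8 inside the healthy range. With single samples left out the difference ran from 3.60 (without CEC sample 2) to 5.99 (without CEC sample 8) for S100a8, and from 3.26 (without CEC sample 1) to 5.58 (without CEC sample 8) for S100a9.

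The promoters of S100a8 and S100a9 are shown because these neighbours on chromosome 3 had the largest differences of the panel, with CEC samples 1 and 2 above 6 and 8 in both. Each sequence is the 250 bases before the gene's start in RefSeq, on build GRCm38.p6, read 5′ to 3′ on the gene's strand. Capitals mark matches of the motif searched for, given after the sequences.
S100a8, chr3:90668821-90669070, plus strand: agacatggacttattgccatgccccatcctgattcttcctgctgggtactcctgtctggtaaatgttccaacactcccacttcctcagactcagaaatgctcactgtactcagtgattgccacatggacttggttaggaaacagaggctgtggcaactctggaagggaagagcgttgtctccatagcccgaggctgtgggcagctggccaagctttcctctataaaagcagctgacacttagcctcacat
S100a9, chr3:90695722-90695971, minus strand: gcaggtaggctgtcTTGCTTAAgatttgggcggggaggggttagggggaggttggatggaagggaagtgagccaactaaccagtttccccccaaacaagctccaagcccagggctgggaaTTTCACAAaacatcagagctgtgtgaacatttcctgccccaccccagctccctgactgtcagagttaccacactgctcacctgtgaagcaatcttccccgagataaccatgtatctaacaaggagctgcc

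On both strands 3 motifs were searched, which are loose forms of sites known for C/EBP factors (TTNNNCAA), AP-1 (TGANTCA) and STAT factors (TTCNNNGAA). The S100a9 window held 2 matches of TTNNNCAA, starting 236 and 130 bases before the start, and none of the other motifs, and the S100a8 window held none of the 3. Of 32851 mouse promoters of this length 33.3% hold TTNNNCAA, 6.75% TGANTCA and 7.02% TTCNNNGAA. These are letter matches in a short window and say nothing of binding.

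Other products of neutrophils and of activated myeloid cells went in the same direction without passing. The chitinase-like lectin Chi3l3, now Chil3, was at 0.27, −4.49 and −5.86 in CEC samples 1, 2 and 6 and was not detected in sample 8, whose Ct was 29.5. The 4 healthy samples lay between −7.72 and −6.14, below all 3 CEC values. Its difference of 3.47 ± 1.22 (limma adjusted p = 0.451) leaves out CEC sample 8, which lay below all healthy samples. The difference was 2.07 with that well set to a Ct of 28, 1.69 with a Ct up to 30 accepted, and 1.66 without CEC sample 1. The iron-binding granule protein lactoferrin, Ltf, was at −3.31, −1.45, −5.98 and −6.40 against −6.81, −7.32, −6.02 and −7.57, a difference of 2.65 ± 0.95 (0.467) that was 1.70 without CEC sample 2 and 3.35 without CEC sample 8. CEC sample 6 was only just above the highest healthy value and sample 8 was within the healthy range. Pglyrp1, a peptidoglycan-binding protein of granules, differed by 0.52 ± 0.35 and the formyl peptide receptor Fpr1 by 0.44 ± 0.70.

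All 6 tested members of the neutrophil granule and alarmin list were higher, with a median of 3.06, beside a median of 0.08 over all genes tested. The list's median, which takes Chi3l3 without CEC sample 8, was 1.99 without CEC sample 1 and 3.97 without CEC sample 6. None passed, and 4 of the 6 had an unadjusted limma p under 0.05, beside 5.46% of all genes tested. Chi3l3 counts among these 4 with its lowest CEC sample, sample 8, left out of the test. The mean level of the 6 genes was −0.07, −0.82, −3.64 and −5.02 in CEC samples 1, 2, 6 and 8, and between −5.47 and −4.37 in the healthy ones, with undetected wells set to a Ct of 28, so CEC sample 8 did not stand above them. The other 4 listed genes could not be tested. Camp, which encodes cathelicidin, was detected in 1 CEC and 0 healthy samples, the leukocyte protease Mmp25 in 3 and 1, the pentraxin Ptx3 in 2 and 0, and the serine protease Prtn3 in none of the 8. In whole mucosa, more cells of a type and more RNA per cell cannot be told apart.

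**Figure D2:**
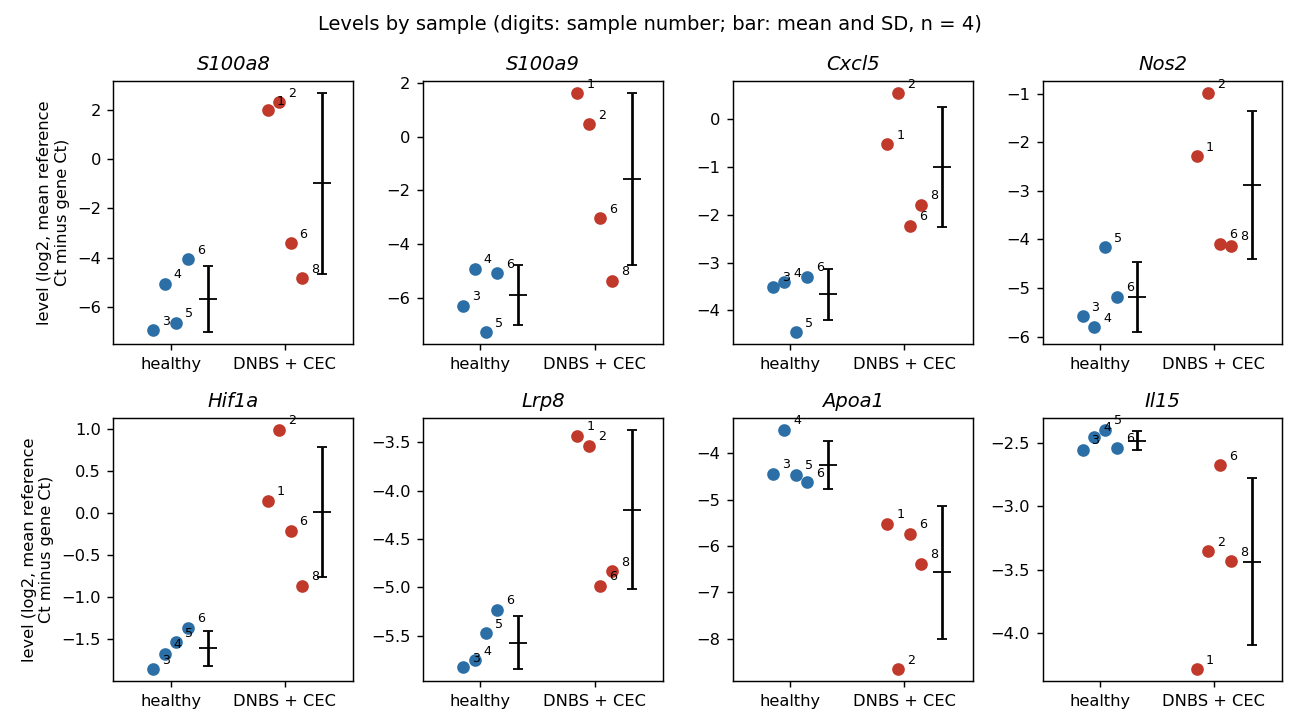
Levels of 8 genes in the 4 healthy (blue) and 4 CEC samples (red), on the log2 scale of mean reference Ct minus gene Ct, with sample numbers beside the points and the mean and SD of each group as a bar. CEC samples 1 and 2 are high in S100a8, S100a9, Cxcl5, Nos2, Hif1a and Lrp8, with samples 6 and 8 nearer to the healthy ones; Apoa1 and Il15 are lower in all 4 CEC samples.

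Chemokines that recruit neutrophils were led by Cxcl5, an epithelial ligand of CXCR2. Its levels were −0.52, 0.55, −2.23 and −1.79 in CEC samples 1, 2, 6 and 8, and −3.51, −3.40, −4.46 and −3.30 in healthy samples 3, 4, 5 and 6. Every CEC sample exceeded every healthy one, by at least the gap between −2.23 and −3.30. The difference was 2.67 ± 0.71, or 6.36-fold (limma adjusted p = 0.336). Cxcl1, the mouse counterpart of the GRO chemokines, was at −2.93, −2.99, −5.52 and −6.32 against −5.29, −5.69, −6.71 and −5.61, a difference of 1.39 ± 0.90 (0.916) that was 2.01 without CEC sample 8. CEC samples 1 and 2 were above the healthy range and samples 6 and 8 within it. The receptor Il8rb, now Cxcr2, was at −5.02, −5.29, −6.38 and −7.63 in CEC samples and between −7.74 and −7.27 in the 3 healthy samples that detected it, a difference of 1.42 ± 0.86 (0.916). Its value in healthy sample 3 was probably filled in, and without it the gene would not have been tested.

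A pair of related chemokines was not detected in some of the healthy samples. Cxcl3 was detected in 4 of 4 CEC samples, at −2.54, −3.77, −6.21 and −7.49, and in healthy sample 6 at −4.70, above CEC samples 6 and 8. Set against the detection limit it was at least 5.56-fold higher in CEC, a bound that was 3.15-fold without CEC sample 1 and 10.6-fold without healthy sample 6. The wells of healthy samples 3 and 5 stood at a Ct of 40, where failed amplification cannot be told from little RNA. Cxcl2 was detected in all 4 CEC samples, from −7.06 to −1.54, and in 2 healthy samples at −8.08 and −6.98. Csf3, also on this list and not tested, went the other way, detected in 2 CEC and 3 healthy samples. Of the 5 tested members of this list 4 were higher (median 1.39) and 1, the receptor Il8ra, was lower, by 0.21 with an SE of 0.81.

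Among the cytokines that drive acute inflammation, CEC samples lay above or within the healthy range. Il1b, the secreted form of interleukin 1 made by myeloid cells, was at −2.99, −2.59, −4.22 and −5.41 in CEC samples 1, 2, 6 and 8 and at −6.70, −5.93, −5.63 and −4.44 in healthy samples 3, 4, 5 and 6. CEC samples 1, 2 and 6 were above all healthy samples and sample 8 among them. The difference of 1.87 ± 1.02 had an adjusted limma p of 0.916. Its antagonist Il1rn differed by 0.56 ± 0.38. In the interleukin 1 family 9 of 12 tested genes were higher and none passed, the median being 0.47. Il1f9, an interleukin 36 cytokine of epithelia, was detected in CEC samples 1, 2 and 6 and in no healthy sample.

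Il6 was detected in all 4 CEC samples, at −4.60, −6.10, −6.53 and −6.14, and in 1 healthy sample at −7.10. With these values taken as measured, Il6 was at least 4.70-fold higher, and between 3.53-fold without CEC sample 1 and 5.89-fold without healthy sample 6. The Ct in CEC sample 8 equalled the mean of the other CEC samples, a sign of a value filled in before deposit, and the other assays of Il6 did not detect that sample. With that well at the detection limit the bound would be lower. The undetected well of healthy sample 3 was also read as filled in. Within the interleukin 6 family 4 tested genes were higher and 3 lower, with a median of 0.02 whose sign turned under all 6 other scalings. Ctf1, cardiotrophin 1, was lower by 0.96 with an SE of 0.45. Clcf1, a cytokine of this family, was detected in 3 CEC samples and 1 healthy sample.

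Tnf, the founding member of its family, was at −4.11, −5.20, −5.19 and −6.51 in CEC samples against −5.96, −7.04, −5.49 and −6.23 in healthy ones, a difference of 0.93 ± 0.77 (limma adjusted p = 0.916). Its second receptor Tnfrsf1b, found mainly on leukocytes and endothelium, was at −0.25, 0.46, −1.40 and −1.77 against −2.24, −2.0, −1.83 and −1.5, a difference of 1.15 ± 0.45 (0.600). CEC sample 8 was within the healthy range of both genes. The receptor Tnfrsf4 on T cells differed by 0.67 ± 0.59 and the ligand Tnfsf14, called LIGHT, by −0.61 ± 0.50. In the superfamily 14 of 21 tested genes were higher, with a median of 0.09 that turned sign under 4 of 6 scalings.

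Hif1a, the oxygen-regulated subunit of a transcription factor that is also active in inflamed epithelium and phagocytes, had the lowest p. Its levels were 0.15, 0.99, −0.21 and −0.87 in CEC samples 1, 2, 6 and 8 and −1.85, −1.67, −1.53 and −1.37 in healthy samples 3, 4, 5 and 6. The groups did not overlap, and the difference was 1.62 ± 0.37, or 3.07-fold (95% interval 0.83 to 2.41; limma adjusted p = 0.226). Nos2, the inducible nitric oxide synthase, was at −2.28, −0.99, −4.09 and −4.13 against −5.58, −5.81, −4.17 and −5.17. CEC samples 6 and 8 were barely above healthy sample 5, and the difference of 2.31 ± 0.72 had an adjusted p of 0.336 and was 1.68 without CEC sample 2. The haem-degrading enzyme Hmox1 differed by 0.94 ± 0.55, with CEC sample 1 at −1.02 and CEC sample 8, at −3.83, within the healthy range of −4.24 to −3.05. Of 9 tested genes on the nitric oxide, haem and hypoxia list 7 were higher (median 0.59), with none passing. The adenosine receptor Adora3 was detected in 3 CEC samples and no healthy one, always within 1 cycle of the limit.

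Chemokines for monocytes and eosinophils had no common direction, with 6 of 12 higher and a median of −0.03. Ccl2, the main ligand of the monocyte receptor CCR2, was at −2.86, −4.23, −4.92 and −6.68 in CEC samples and between −6.36 and −5.30 in healthy ones. CEC sample 8 was below all healthy samples and the others above them, for a difference of 1.10 ± 0.72 that was 0.50 without CEC sample 1 and 1.77 without CEC sample 8. Ccl7, from the same gene cluster, was above the healthy range only in CEC samples 1 and 2, at −2.79 and −3.14, with a difference of 1.30 ± 0.94 that was 2.12 without CEC sample 8. Ccl8 differed by −0.98 ± 0.96, with CEC samples from −6.47 to −1.89, and was −0.13 without CEC sample 1 and −1.66 without CEC sample 6. The eosinophil attractant Ccl24 was at −8.53, −7.23, −6.05 and −6.64 against healthy values of −6.38 to −6.01, a difference of −0.84 ± 0.46. None of the 4 passed, with a limma adjusted p of 0.916 or 0.917.

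**Figure D3:**
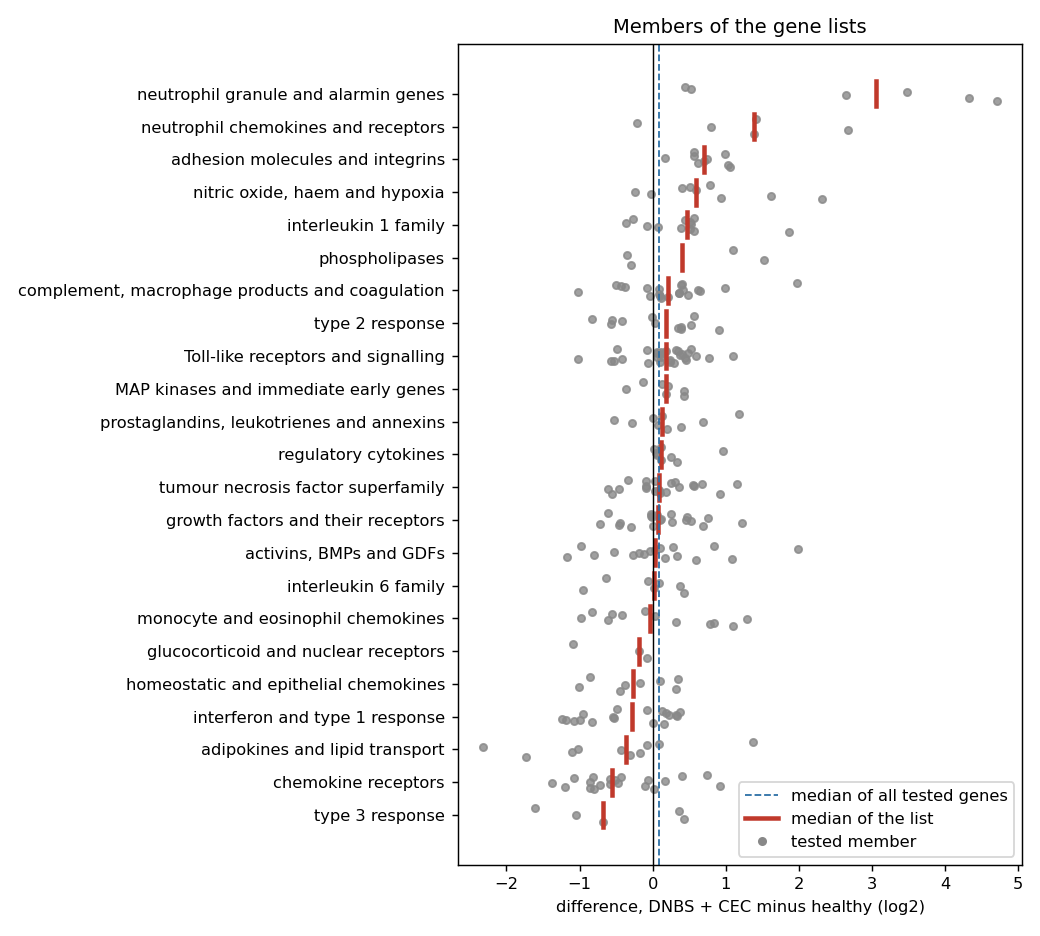
Differences between CEC and healthy samples on the log2 scale for the tested members (grey points) of 23 gene lists, with the median of each list (red bar) and of all 458 tested genes (dashed blue line). The neutrophil lists lie farthest to the right, and chemokine receptors and the type 3 response have the lowest medians; a gene may be in several lists.

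Among adhesion molecules, which let leukocytes roll, stick and cross the vessel wall, all 9 tested genes were higher, beside 57.6% of all genes tested. Their median was 0.70 and stayed between 0.36 and 0.64 under the 6 other scalings. Selp, the selectin that activated endothelium and platelets display, was at −4.28, −4.85, −6.32 and −6.55 against −6.71, −6.03, −7.20 and −6.29, a difference of 1.06 ± 0.70. CEC samples 1 and 2 were above the healthy range and samples 6 and 8 within it. Itgam, the alpha chain of the myeloid integrin CD11b/CD18, was at −0.53, −3.98, −2.33 and −4.28 against −4.08, −2.62, −4.30 and −4.25, a difference of 1.03 ± 0.78 that was 0.28 without CEC sample 1. Its beta chain Itgb2 differed by 0.70 ± 0.48. Itgb6, the epithelial integrin chain that activates TGF-beta, differed by 0.74 ± 0.35. It was the 1 member with an unadjusted limma p under 0.05, beside 5.46% of all genes tested. Spp1, osteopontin, was at −4.89, −8.36, −5.39 and −7.02 and differed by 0.98 ± 0.83, with CEC sample 2 at the low end of the healthy range and a difference of 1.63 without it.

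Anxa1, a protein that glucocorticoids induce and that limits neutrophil entry, was at 2.5, 2.93, 1.53 and 1.35 in CEC samples and at 0.76, 0.58, 0.97 and 1.26 in healthy ones. The groups did not overlap, with CEC sample 8 close above healthy sample 6, and the difference was 1.18 ± 0.38 (limma adjusted p = 0.336). The prostaglandin synthase Ptgs2 differed by 0.38 ± 0.90 and the leukotriene pathway protein Alox5ap by 0.69 ± 0.66. Of the 4 phospholipases tested, Pla2g7, which breaks down platelet-activating factor, was higher by 1.09 ± 0.48. Pla2g2e had 3 CEC samples between −7.06 and −6.89 and sample 2 at −3.93, against healthy values of −8.62 to −7.20. All 4 CEC values were thus above the healthy ones, yet the difference of 1.52 ± 0.88 rested mainly on sample 2 and was 0.75 without it.

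Markers of innate sensing and acute phase proteins spread widely. Saa3, a local serum amyloid, was at 3.21, 0.02, −1.35 and −3.62 in CEC samples 1, 2, 6 and 8 and at −4.58, 0.97, −4.44 and −1.57 in healthy samples 3, 4, 5 and 6. The ranges overlapped over most of their length, and the difference of 1.97 ± 1.30 was 0.75 without CEC sample 1 and 3.09 without healthy sample 4. Lbp, which hands bacterial lipopolysaccharide to CD14, differed by 1.10 ± 0.54. Its receptor Tlr4 differed by 0.09 ± 0.46, with a 95% interval of −0.88 to 1.07. Of 29 tested genes on the Toll-like receptor list 22 were higher with a median of 0.19, which turned sign under 2 scalings, and none passed. Tlr13 differed by 0.77 ± 0.51 and Tlr11 by −1.03 ± 0.68.

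The growth factors included Thpo, thrombopoietin, at −5.14, −3.58, −4.49 and −5.10 in CEC samples against −6.25, −5.60, −5.32 and −6.04 in healthy ones. No CEC sample reached down to the healthy range, and the difference was 1.23 ± 0.38 (limma adjusted p = 0.336). Hgf, a mesenchymal factor for epithelial repair, differed by 0.76 ± 0.37 and the receptor Kit by −0.72 ± 0.48. In the activin and bone morphogenetic protein family Bmp8b was at −3.19, −6.45, −5.50 and −6.38 against −6.24, −7.05, −7.80 and −8.38, a difference of 1.99 ± 0.67 (0.384) that was 1.25 without CEC sample 1. Inhbb, a subunit of activin B, differed by 1.08 ± 0.44 (0.772), of which CEC sample 1 at −5.28 held a large part, since the difference was 0.58 without it. The receptor Acvr2b differed by −1.18 ± 0.62. Inhba, a subunit of activin A, differed by 0.60 ± 0.50 with no overlap of the groups. This family had 9 of 17 tested genes higher, and a median of 0.03 that turned sign under all 6 scalings.

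Lipid carriers held the largest negative difference and a positive one. Apoa1, the main protein of high-density lipoprotein, was at −5.51, −8.65, −5.73 and −6.38 in CEC samples 1, 2, 6 and 8 and at −4.44, −3.49, −4.46 and −4.62 in healthy samples 3, 4, 5 and 6. All CEC samples were below all healthy ones, and the difference was −2.32 ± 0.72 (95% interval −3.83 to −0.80; limma adjusted p = 0.336), or −1.62 without CEC sample 2. Apoa4, its neighbour in function made by enterocytes, was detected in 4 healthy samples and in CEC sample 6 alone, and was at least 3.78-fold lower in CEC. By contrast Lrp8, a receptor for apolipoprotein E and reelin, was at −3.43, −3.54, −4.98 and −4.83 against −5.82, −5.75, −5.48 and −5.23, a difference of 1.37 ± 0.38 (0.336) with no overlap. Apoe itself differed by −0.08 ± 0.47 and Clu, clusterin, by 0.09 ± 0.74.

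Genes of fat cells were lower on average and variable in both groups. Adipoq, adiponectin, was at −6.09, −4.82, −2.08 and −2.03 in CEC samples and at −2.04, −0.39, −3.40 and −2.26 in healthy ones, a difference of −1.73 ± 0.83 (limma adjusted p = 0.872) that was −0.95 without CEC sample 1. CEC samples 6 and 8 stood among the healthy values. Retn, resistin, differed by −1.10 ± 0.75, Cfd, adipsin, by −1.02 ± 0.75, Fabp4 by −0.44 ± 0.55 and Pparg by −0.19 ± 0.38. Without healthy sample 4 Retn and Cfd were at −0.42 and −0.39, and without healthy sample 5 at −1.78 and −1.79, while Fabp4 was at 0.17 without CEC sample 2. All 6 tested adipocyte markers were lower, with a median of −0.73, and their mean level ranged from −4.30 to −2.18 in CEC and from −3.58 to −0.99 in healthy samples. The amount of fat in each piece of tissue was not tested.

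Interleukin receptors and lymphoid cytokines included several lower genes. Il15, which sustains intraepithelial lymphocytes, was at −4.28, −3.35, −2.67 and −3.43 in CEC samples against −2.55, −2.45, −2.40 and −2.54 in healthy ones. The healthy values were close together, all CEC samples were below them, and the difference was −0.95 ± 0.35 (limma adjusted p = 0.517). Il22ra2, the secreted protein that binds and blocks interleukin 22, was at −7.39, −5.69, −4.45 and −6.12 against −4.16, −4.06, −4.67 and −4.30, a difference of −1.61 ± 0.51 (0.336) with CEC sample 6 inside the healthy range. Il17rb, a receptor for interleukin 25, was at −7.55, −7.08, −6.64 and −6.38 against −5.33, −6.04, −5.76 and −6.34, a difference of −1.04 ± 0.53 (0.881). Its groups just failed to overlap, and its value in healthy sample 3 was probably filled in.

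The cytokines of the type 3 response were themselves hardly readable. Il17a and Il22, listed as Il22;Iltifb, were detected in CEC sample 2 alone, and Il17f and Il21 in none of the 8 samples. Of the 5 tested genes 3 were lower, with a median of −0.67 set by Il17d, and Il17d was close to 0 without CEC sample 2, at −0.03. Il4ra, the shared receptor chain of interleukins 4 and 13, was at −0.53, −0.78, −1.15 and −1.84 in CEC samples and between −2.03 and −1.95 in the 3 healthy samples that could be read, a difference of 0.90 ± 0.40 (limma adjusted p = 0.822). The well of healthy sample 3 stood at a Ct of 40 and is left out of that value. Il4, Il5, Il13 and Il10 were detected in none of the 8 samples. Regulatory genes were all higher by small amounts, 8 of 8 with a median of 0.11 that turned sign under 3 of 6 scalings. That median was close to the 0.08 of all genes tested. Ctla4, an inhibitory receptor of T cells, was at 0.96 ± 0.43 and Tgfb1 at 0.25 ± 0.43.

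Interferon gamma, Ifng, was detected in 3 CEC and 2 healthy samples and could not be tested. The chemokines it induces were uneven among the CEC samples. Cxcl9 was at −0.58 in CEC sample 2 and between −4.64 and −4.56 in the other CEC samples, against −4.26 to −3.72 in healthy ones, so that a difference of 0.37 ± 0.80 became −0.63 without CEC sample 2. Cxcl10 was highest in the same sample, at −2.25, and differed by 0.12 ± 0.93, or by −0.58 without that sample. Cxcl11 was detected in 0 CEC and 3 healthy samples, and its CEC wells lay within 2 cycles of the limit. Its value in healthy sample 6 was probably filled in, and without it the gene does not meet the rule for a difference in detection.

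Chemokine receptors were mostly lower, 15 of 20 with a median of −0.55. The gut-homing receptor Ccr9 differed by −1.37 ± 0.69, its ligand Ccl25 by −1.0 ± 0.54, the eosinophil receptor Ccr3 by −1.19 ± 0.87, the scavenger receptor Cxcr7, now Ackr3, by −1.08 ± 0.88 and Ccr1, which neutrophils and monocytes carry, by 0.02 ± 0.37. Without healthy sample 5 Ccr3 and Cxcr7 were at −1.92 and −1.83, and without CEC sample 2 at −0.55 and −0.49. Type 1 interferons were lower as well, with Ifnb1 at −1.24 ± 0.67, Ifna12 at −1.19 ± 0.72 and Ifna4 at −1.07 ± 0.78. None of these passed.

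These receptor and interferon genes share a kind of assay. By their names, 45 of the 458 tested genes were read only by assays whose primers and probe lie inside 1 exon, and such assays can also amplify genomic DNA. Of these 45 genes 38 were lower in CEC, with a median of −0.58, against 156 of the other 413, with a median of 0.11, a split chosen after the values were seen. The mean level of the 45 genes was −4.53, −5.42, −4.66 and −4.63 in CEC samples 1, 2, 6 and 8 and −3.52, −3.79, −5.23 and −4.47 in healthy samples 3, 4, 5 and 6. Healthy samples 3, 4 and 6 were thus higher than all CEC samples, and healthy sample 5 lower than 3 of them. Among chemokine receptors 10 of 11 genes read this way were lower (median −0.80), while the other 9 had a median of −0.07. In the interferon and type 1 list 7 of 7 were lower (median −0.99), while the other 11 had a median of 0.15. The part of genomic DNA in these values was not tested.

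**Figure D4:**
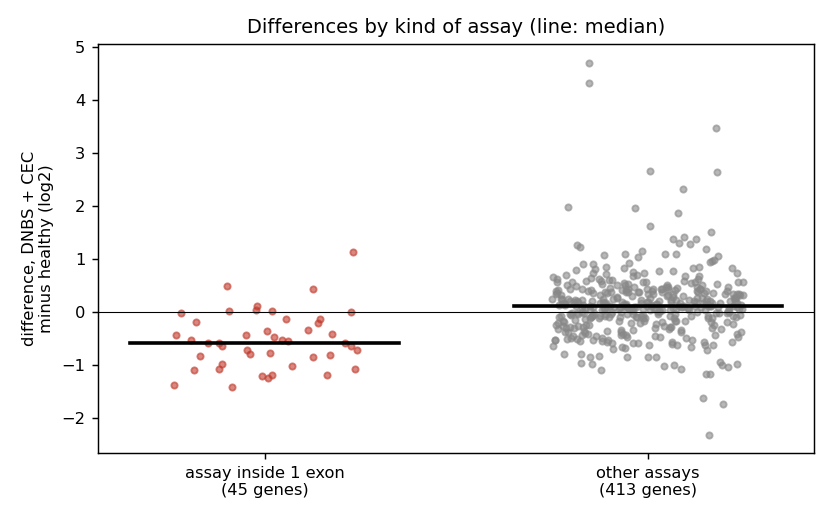
Differences between CEC and healthy samples on the log2 scale for the 45 tested genes read only by assays inside 1 exon (red) and the other 413 (grey), with the median of each set as a black line. Most red points lie below 0, while the median of the grey points is 0.11; the horizontal scatter has no meaning.

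The groups also did not overlap in Muc1, Il3ra and Scube1, all higher in CEC. Muc1, a membrane mucin of epithelium, differed by 1.29 ± 0.57, of which CEC sample 2 at 0.47 held a large part, the other CEC samples lying between −2.63 and −2.25 and the healthy ones between −3.58 and −2.81. Il3ra, the receptor chain for interleukin 3, differed by 0.67 ± 0.28 and Scube1, a secreted and surface protein of platelets and endothelium, by 0.72 ± 0.32. Fgf12, an intracellular relative of the fibroblast growth factors, was lower by 1.0 with an SE of 0.45 and a limma adjusted p of 0.822.

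Marker lists of cell types were set beside these results. The 4 tested neutrophil markers, S100a8, S100a9, Il8rb and Ltf, had a mean level of −1.18, −0.99, −4.70 and −6.06 in CEC samples 1, 2, 6 and 8 and of −7.15 to −6.12 in healthy samples. In this mean CEC sample 8 was just above the healthy range. Of the markers not tested, Camp was detected in 1 CEC and 0 healthy samples and Mmp25 in 3 and 1. Of 9 markers of monocytes, macrophages and dendritic cells 5 were higher (median 0.06), with mean levels of −4.66 to −3.99 in CEC and −4.44 to −4.04 in healthy samples. T cell markers were split 2 and 2 (median 0.39), and the B cell markers were Cr2 at −1.18 ± 0.55 and Cd180 at 0.11 ± 0.46. How far numbers of neutrophils account for the other differences was not tested.

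In all, 12 of the 568 genes met the rule for a difference in detection, detected in 3 or 4 samples on one side and in 0 or 1 on the other (2.11%). Of these 10 were detected more often in CEC (1.76%) and 2, Apoa4 and Cxcl11, less often (0.352%). Beside the genes described above, the 10 included Chrna7, the alpha 7 acetylcholine receptor subunit, Ghrl, which encodes ghrelin, and Inha, the inhibin alpha chain, each detected in 3 CEC samples. Chrna7 was detected in no healthy sample and Ghrl and Inha in 1. In these 3 genes at least 1 healthy sample missed the limit by less than 1 cycle, and the values of Inha in CEC sample 6 and of Chrna7 in CEC sample 2 were probably filled in. Without those values neither gene meets the rule. The two-sided Fisher's exact test gave 0 genes with an unadjusted p under 0.05, a lowest p of 0.143 and adjusted values of 1. With any Ct under 40 counted as detected only 2 genes met the rule, and neither was among the 12.

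Set beside the DNBS and Nissle groups, the CEC group differed from the healthy samples by the following amounts. These comparisons share their 4 healthy samples, so their values are only listed. S100a8 was 4.71 above healthy in CEC, 6.49 in DNBS and 7.81 in Nissle. Il1b was 1.87, 3.71 and 4.76 above, Nos2 2.31, 3.83 and 3.13, and Cxcl5 2.67, 2.68 and 3.79. The values of Hif1a were 1.62, 0.90 and 1.5, those of Lrp8 1.37, 0.32 and 1.31, and those of Apoa1 −2.32, −1.13 and −1.99. By the rule above, 0 genes were called in CEC, 5 of 457 in DNBS and 11 of 457 in Nissle, against the same healthy samples.

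**Figure D5:**
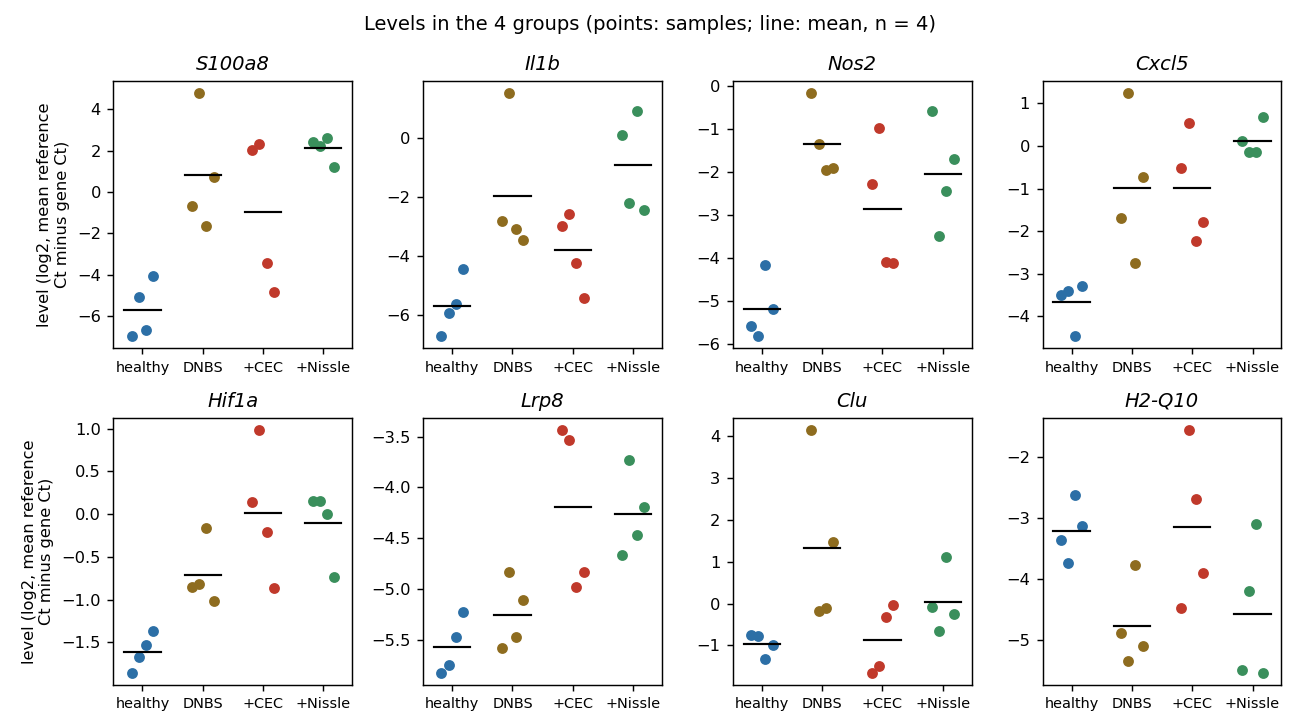
Levels of 8 genes in the 4 groups, 4 samples each (points) with the mean (line), on the log2 scale of mean reference Ct minus gene Ct; +CEC and +Nissle are mice given DNBS and the oral treatment, and DNBS is DNBS with oral PBS. CEC samples span the space between healthy and DNBS levels in S100a8 and Il1b, and have a mean close to the healthy one in Clu and H2-Q10.

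Direct tests called no gene between the CEC group and the other groups given DNBS. Against DNBS 0 of 474 genes were called in limma (percent called 0), 8 had an unadjusted p under 0.05 (1.69%; 0.422% higher and 1.27% lower), and the groups did not overlap in 3 (0.633%), of which Ccr1 and Apoa1 were lower (0.422%) and Scube1 was higher (0.211%). The lowest p-values belonged to Clu, at −2.21 ± 0.75 (95% interval −3.80 to −0.63), Tnfsf14 at −1.30 ± 0.46, Lrp8 at 1.06 ± 0.38, Ccr1 at −0.95 ± 0.37 and H2-Q10, a class I histocompatibility gene, at 1.61 ± 0.63, all with a limma adjusted p of 0.999. Clu was at 4.15, −0.17, −0.10 and 1.46 in DNBS samples 2, 3, 4 and 5, so that 1 DNBS sample held a large part of its difference. In 3 of these genes, Clu, Ccr1 and H2-Q10, the CEC mean was close to the healthy one, with differences of 0.09, 0.02 and 0.06. CEC samples nevertheless lay both above and below the healthy range of Clu and of H2-Q10. Lrp8 and Tnfsf14 were farther from the healthy mean in CEC, with differences of 1.37 and −0.61. S100a8 was at −1.78 ± 1.51 and Cxcl5 at −0.01 ± 0.71 against DNBS, so neither could be told from it at this precision.

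Against Nissle 0 of 471 genes were called in limma (percent called 0), 21 had an unadjusted p under 0.05 (4.46%), and the groups did not overlap in 9 (1.91%). Of the 21 genes 17 were lower in CEC (3.61%) and 4 higher (0.849%), and of the 9 genes 4 were lower (0.849%) and 5 higher (1.06%). The lowest p-values belonged to Ccl24 at −1.80 ± 0.46, Spp1 at −2.97 ± 0.84, Il8rb at −2.57 ± 0.80, Selp at −2.20 ± 0.71 and Il1b at −2.89 ± 1.03, with limma adjusted p from 0.565 for Ccl24 to 0.961 for Il1b. In Spp1, Il8rb, Selp and Il1b all 4 CEC samples lay below all Nissle samples.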

How the data were processed

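The authors deposited raw Ct values, a unit recorded here as other, from a TaqMan OpenArray mouse inflammation panel run on colonic mucosa RNA, per the labels' protocols; threshold software is not given in the sources used here. Of its values 194 (1.87%) matched their group's other 3 samples averaged, within 2e-06, and were read as filled in, 57 of them in healthy sample 3 (among the tested genes described Cxcl1, Cxcl10, Ifna12, Ifnb1, Il17rb, Il8rb, Pla2g2e, Pla2g7 and Ptgs2, while Cr2 has 1 in CEC sample 1), and 532 values (5.52% of those under 40) had 4 or fewer decimals, where digits may be lost. Both kinds were kept and left out in alternatives.

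Levels were the mean Ct of 13 reference genes (19 assays) minus the gene's Ct. Some genes are not reported here by name. Assays of a gene detected in the most of the 16 samples were averaged. Wells above a Ct of 28 were left out, which dropped a sample from 32 of 458 tested genes. To judge whether groups overlap, such wells were set to a Ct of 28. Differences came from limma 3.58.1 (lmFit, moderated variances) in R 4.3.3, in 1 model of the 16 samples with 12 residual degrees of freedom, adjusted by Benjamini-Hochberg over all genes of a comparison. The code was tested on simulated data. Named genes are those of lowest p, a fixed list, the detection differences and the largest members of each gene list; genes outside this rule (Muc1, Il3ra, Scube1, Inhba, Itgb6, Itgb2, Krt8, Pglyrp1, Fpr1, Il8ra, and those given only by detection) were picked with their values in view. The samples, gene lists and tests were chosen with earlier results of these data known.

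Alternatives were 4 other reference sets, the global mean, quantile normalization, other detection limits and filters, filled or short values left out, fewer samples in the fit, and each sample left out.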

Additional observations from a re-analysis of the deposited data

Results flagged for a closer look

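In 147 sets of 4 values (a named gene in 1 group), 10 had a highest or lowest sample whose gap to the next one exceeded Dixon's 95% limit for 4 samples. Chance flags about 1 in 20 groups, which is 7.35 here. Among CEC samples, Cxcl9 was at −0.58 in sample 2 with the others between −4.64 and −4.56. Pla2g2e was at −3.93 in the same sample with the others between −7.06 and −6.89. Inhbb was at −5.28 in CEC sample 1 with the others between −7.39 and −7.14. Pparg was at −1.04 in CEC sample 6 with the others between −1.83 and −1.77, and the B cell gene Cd180 at −5.57 in CEC sample 8 with the others between −4.70 and −4.57.

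Among healthy samples, Apoa1 was at −3.49 and Itgam at −2.62 in sample 4, with the others between −4.62 and −4.44 and between −4.30 and −4.08. Ccl24 was at −6.01 in healthy sample 6 with the others between −6.38 and −6.35. Xcl1, which encodes lymphotactin, was lowest there at −5.07 with the others between −4.43 and −4.39. Ctf1 was at −7.79 in healthy sample 3 with the others between −6.58 and −6.50.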

How the results depend on the processing

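The count of genes called between CEC and healthy samples was 0 under the alternatives to the processing and ranged from 0 to 1 with single samples left out (1 without CEC sample 8). It was 0 in the comparisons with DNBS and Nissle under each alternative run. Unadjusted p-values under 0.05 against DNBS numbered 8, but 18 without Ywhaz and Rplp2, 19 with the global mean and 5 to 26 with single samples left out; against Nissle they numbered 21, and 12 to 36 with single samples left out. The count at an unadjusted p under 0.05 was 50 with the 3 reference genes of lowest SD, against 25. Detection differences fell from 12 to 2 with any Ct under 40 and ranged from 15 to 21 with single samples left out, where 2 of 3 samples sufficed. Genes higher in CEC made up 57.6% of those tested, but 40.4% with Gapdh alone, 33.8% without Ywhaz and Rplp2, 27.3% with the 3 reference genes of lowest SD, 47.4% with the global mean and 43.9% with quantile normalization. The median of all genes moved from 0.08 to between −0.26 and 0.02 under these 5 and with all endogenous controls (51.1% higher). No paired analysis was possible because CEC and healthy samples share only 1 sample number, 6, and the labels do not tie equal numbers to a mouse or day.

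Alternatives gene by gene were run for 73 named genes, of which 11, all uncalled, turned sign under at least 1. With Gapdh alone Ccr1, Cd180, Clu, Cxcl10, H2-Q10 and Tlr4 were at −0.15, −0.0536, −0.0818, −0.0448, −0.108 and −0.0732. Without Ywhaz and Rplp2 these 6 were at −0.216, −0.119, −0.148, −0.11, −0.173 and −0.139. With the 3 reference genes of lowest SD they were at −0.327, −0.231, −0.259, −0.222, −0.285 and −0.25, and Tgfb1 at −0.0927. With all endogenous controls Ccr1 was at −0.0461 and H2-Q10 at −0.00393. Ccr1, Clu, H2-Q10 and Tlr4 were at −0.0837, −0.0157, −0.0415 and −0.00713 with the global mean, at −0.145, −0.0593, −0.11 and −0.0691 with quantile normalization, and at −0.108, −0.0397, −0.0655 and −0.0311 with filled values left out, where Cd180 was at −0.0114. With short decimals left out Ccr1 was at −0.0821 and H2-Q10 at −0.0289, and with a Ct of at most 26 Apoe was at 0.048. With single samples left out the ranges were −0.334 to 0.147 for Apoe, −0.0871 to 0.198 for Ccr1, −0.0518 to 0.35 for Cd180, −0.198 to 0.346 for Clu, −0.582 to 0.579 for Cxcl10, −0.634 to 0.721 for Cxcl9, −0.745 to 0.166 for Fabp4, −0.471 to 0.501 for H2-Q10, −0.0175 to 0.605 for Ptgs2, −0.0258 to 0.626 for Tgfb1 and −0.413 to 0.406 for Tlr4. Causes were not tested.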
